A study of Mus musculus with 2 samples.

Results

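The genes of the lysosome and of its proton pump were followed in mouse bone marrow myeloid-derived suppressor cells (MDSC) that had developed with or without dabrafenib. The group was a fixed list of 42 genes, picked by symbol for what their proteins do. It made up 42 of the 32285 genes in the deposited count matrices, and every member was present. The list held 16 V-ATPase genes (6 of the membrane sector V0, 8 of the cytosolic sector V1 and 2 accessory subunits), 7 cathepsins, 7 lysosome membrane proteins, 10 lumenal hydrolases and carriers, and the transcription factors Tfeb and Tfec. Marrow cells of 10-week-old female C57BL/6 mice were the source of both libraries and were kept in GM-CSF and IL-6 (50 ng/mL of each) over 4 days. The DAB library was made from cells cultured with 1.5 µM dabrafenib, a BRAF inhibitor, and the DMSO library from cells given the solvent alone. There was 1 library per condition, no source used here gives the number of mice behind each, and the cultures are mixtures of myeloid cells at several stages rather than a single cell type.

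Lysosomes are the acidic compartments in which cells break down proteins, lipids and sugars taken up from outside or delivered by autophagy. The V-ATPase acidifies them: its V1 sector hydrolyses ATP in the cytosol and thereby turns the V0 sector, which carries protons across the membrane. Cathepsins and the other hydrolases work inside at low pH, and in macrophages and dendritic cells they also process antigen and invariant chain for MHC class II. Many of these genes are targets of the MiT/TFE transcription factors (Tfeb, Tfec, Tfe3 and Mitf), which bind E-box motifs with the core CACGTG in the promoters.

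The promoters of the group were searched for that core, because the results below turn on Tfeb, Tfec and the genes around them. Windows of 300 bases (250 before and 50 after the transcription start) from RefSeq on GRCm38.p6 were matched by symbol for 35 of the 42 members, and 7 had no window. CACGTG, which reads the same on both strands, was found in at least 1 window of 10 of the 35 members (28.6%), against 8.09% of the 27025 genes with a window and 11.1% of the 11969 of them that were tested here. The V-ATPase supplied 4 of the 10 (Atp6v0b, Atp6v0d1, Atp6v0e and Atp6v1a), and the others were Ctsa, Ctsd, Ctsl, Lamp1, Mcoln1 and Gaa. The windows, and the sequences shown here, were chosen after the values had been seen. The 100 bases just before the start are given 5′ to 3′ on the strand of the gene, with CACGTG in capitals, for 4 members that hold it and for the members with the highest and the lowest ratio over all cells, which do not. In order, they lie at chr8:13159061-13159160 (plus strand), chr8:3500419-3500518 (plus), chr4:117887330-117887429 (minus), chr7:142387828-142387927 (minus), chr5:130003050-130003149 (minus) and chr6:16898442-16898541 (minus).
Lamp1: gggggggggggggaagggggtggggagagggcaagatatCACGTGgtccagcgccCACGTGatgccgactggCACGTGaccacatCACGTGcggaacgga
Mcoln1: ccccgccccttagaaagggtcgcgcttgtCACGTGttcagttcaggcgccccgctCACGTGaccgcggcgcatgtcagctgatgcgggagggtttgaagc
Atp6v0b: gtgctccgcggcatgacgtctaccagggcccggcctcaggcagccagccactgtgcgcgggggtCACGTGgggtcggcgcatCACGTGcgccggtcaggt
Ctsd: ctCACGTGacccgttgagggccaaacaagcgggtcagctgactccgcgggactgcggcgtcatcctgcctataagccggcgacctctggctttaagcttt
Gusb: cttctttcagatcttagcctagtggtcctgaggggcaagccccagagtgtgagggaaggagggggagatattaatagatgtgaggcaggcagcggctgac
Tfec: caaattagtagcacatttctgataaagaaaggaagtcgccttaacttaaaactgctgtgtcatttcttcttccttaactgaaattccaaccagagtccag

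The DMSO matrix held 9855 barcodes and 106792967 unique molecular identifiers (UMIs), and the DAB matrix 11631 barcodes and 165506902 UMIs. After removal of barcodes with over 10% mitochondrial UMIs and of likely doublets, 9032 DMSO and 10476 DAB cells remained, with a median of 7470 and 9335.5 UMIs per cell. The libraries shared 152 barcode sequences, 1.54% of the DMSO and 1.31% of the DAB barcodes. A level is given as UMIs summed over the cells of a library and divided by all their UMIs, on the usual CPM scale (counts per 10 to the power 6). A difference is the log2 ratio of the DAB over the DMSO level, with an exact 95% interval that covers counting error only. With 1 library per condition no test between conditions was possible. A gene is called higher or lower where the log2 ratio is at least 0.5 in size and its interval leaves out 0, and the share of all genes called the same way is the background. In bulk sums, fewer cells of a type and less RNA per cell cannot be told apart.

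Over all cells, the group as a whole differed little between the libraries. Its 42 genes took 1.22% of the UMIs in DMSO and 1.13% in DAB. Their median log2 ratio was −0.08 (95% interval over the members −0.17 to 0.06), against −0.02 for all 16395 genes with at least 20 UMIs, and 16 of the 42 lay above 0. All 42 members passed the minimum of 20 UMIs. Of these, 1 was called higher in DAB (2.38%), against a background of 13.8%, and 6 were called lower (14.3%), against a background of 16.2%. The median took the other sign when every cell was given the same weight, at 0.17, and then 9 members were higher and 2 lower. Neither the median nor the called share of all genes is given for that weighting. These counts therefore have no background beside them. DAB cells carried more UMIs each, and the classes of cells made up different shares of the libraries, so the sums below are followed by values within classes.

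No V-ATPase gene was called in either direction over all cells. Within the V0 sector, which forms the proton channel, the median log2 ratio was 0.21. Atp6v0b, a proteolipid-type subunit, had the highest V0 ratio, at 259 CPM in DMSO and 345 CPM in DAB (log2 0.42, interval 0.39 to 0.44). Atp6v0d1, which couples the sectors, had the lowest, at 180.2 and 162 CPM (−0.15, −0.18 to −0.12). The V1 sector had a median of −0.03. Its ratios ran from −0.45 (−0.48 to −0.41) for Atp6v1b2, a nucleotide-binding subunit at 147 and 108 CPM, to 0.20 (0.16 to 0.25) for Atp6v1c1, a stalk subunit at 65.0 and 74.8 CPM. Both accessory subunits lay above 0, Atp6ap2 at 0.17 and Atp6ap1 at 0.43. Over all 16 pump genes the median was 0.00 and the summed level 3441 CPM in DMSO and 3666 CPM in DAB. The log2 ratios of the pump were thus spread over less than 1 unit.

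Among the cathepsins, the cysteine protease cathepsin S (Ctss, chromosome 3 from 95526786 to 95556403, plus strand, GRCm38), which cleaves invariant chain in antigen-presenting cells, was the only member called. Ctss stood at 357 CPM in DMSO and 196 CPM in DAB (log2 −0.86, −0.88 to −0.84). The aspartic protease cathepsin D (Ctsd) lay at the other end, at 929 and 1292 CPM (0.47, 0.46 to 0.49), just under the size needed for a call. Ctsk, the collagen-degrading cathepsin of osteoclasts, was near the limit of detection, with 92 DMSO and 173 DAB UMIs in all, and its ratio of 0.31 had an interval from −0.07 to 0.69.

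No lysosome membrane gene was called over all cells. The tetraspanin Cd63 had the highest ratio, at 383 and 541 CPM (0.50, 0.48 to 0.52, just under the call before rounding), and the macrophage sialomucin Cd68 the lowest, at 268 and 200.4 CPM (−0.42, −0.45 to −0.40). Gpnmb, a glycoprotein of lysosomes and melanosomes that is induced in lipid-laden macrophages, was almost level over all cells, at 232 and 228 CPM (−0.02, −0.05 to 0.00). Its ratios within classes of cells lay on both sides of 0.

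The hydrolases and their carriers held the only member called higher. Gusb (chromosome 5 from 129989011 to 130003049, minus strand), which encodes β-glucuronidase, stood at 46.0 CPM in DMSO and 88.1 CPM in DAB, a 1.91-fold difference (log2 0.94, 0.89 to 0.99). The 3 genes called lower here act in lipid handling. Psap, the precursor of the saposins that present sphingolipids to hydrolases, stood at 2952 and 1911 CPM (−0.63, −0.64 to −0.62). Npc2, which carries cholesterol in the lumen, stood at 563 and 364 CPM (−0.63, −0.65 to −0.61). Lipa, the lysosomal acid lipase, stood at 48.7 and 32.9 CPM (−0.57, −0.63 to −0.51). With every cell weighted the same, Psap, Npc2 and Lipa were at −0.24, −0.48 and −0.11 and no longer called, while Gusb was at 1.03. Man2b1, an α-mannosidase, was just under the call at 0.49.

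Both transcription factors were lower in DAB. Tfec (chromosome 6 from 16833373 to 16898441, minus strand), a family member found mainly in macrophages and related cells, stood at 63.6 CPM in DMSO and 20.2 CPM in DAB (log2 −1.65, −1.72 to −1.59). Tfeb (chromosome 17 from 47737030 to 47792419, plus strand), the best known regulator of lysosome biogenesis, stood at 24.5 and 15.6 CPM (−0.65, −0.74 to −0.57). The call on Tfeb was lost with every cell weighted the same (−0.42), and that on Tfec was kept (−0.97). Of the 7 members called over all cells, each had a promoter window and none of them held CACGTG. Within the classes of cells compared below, members with the core were called in both directions. Examples are Ctsd, higher in 3 classes, and Lamp1, lower in 2. The 10 members with the core ran from −0.43 to 0.47, with a median of −0.11. The 25 members with a window but no core ran from −1.65 to 0.94, with a median of −0.02. Whether the core bears on the ratios was not tested. Among all tested genes with the core, 14.9% were called higher and 15.1% lower.

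**Figure D1:**
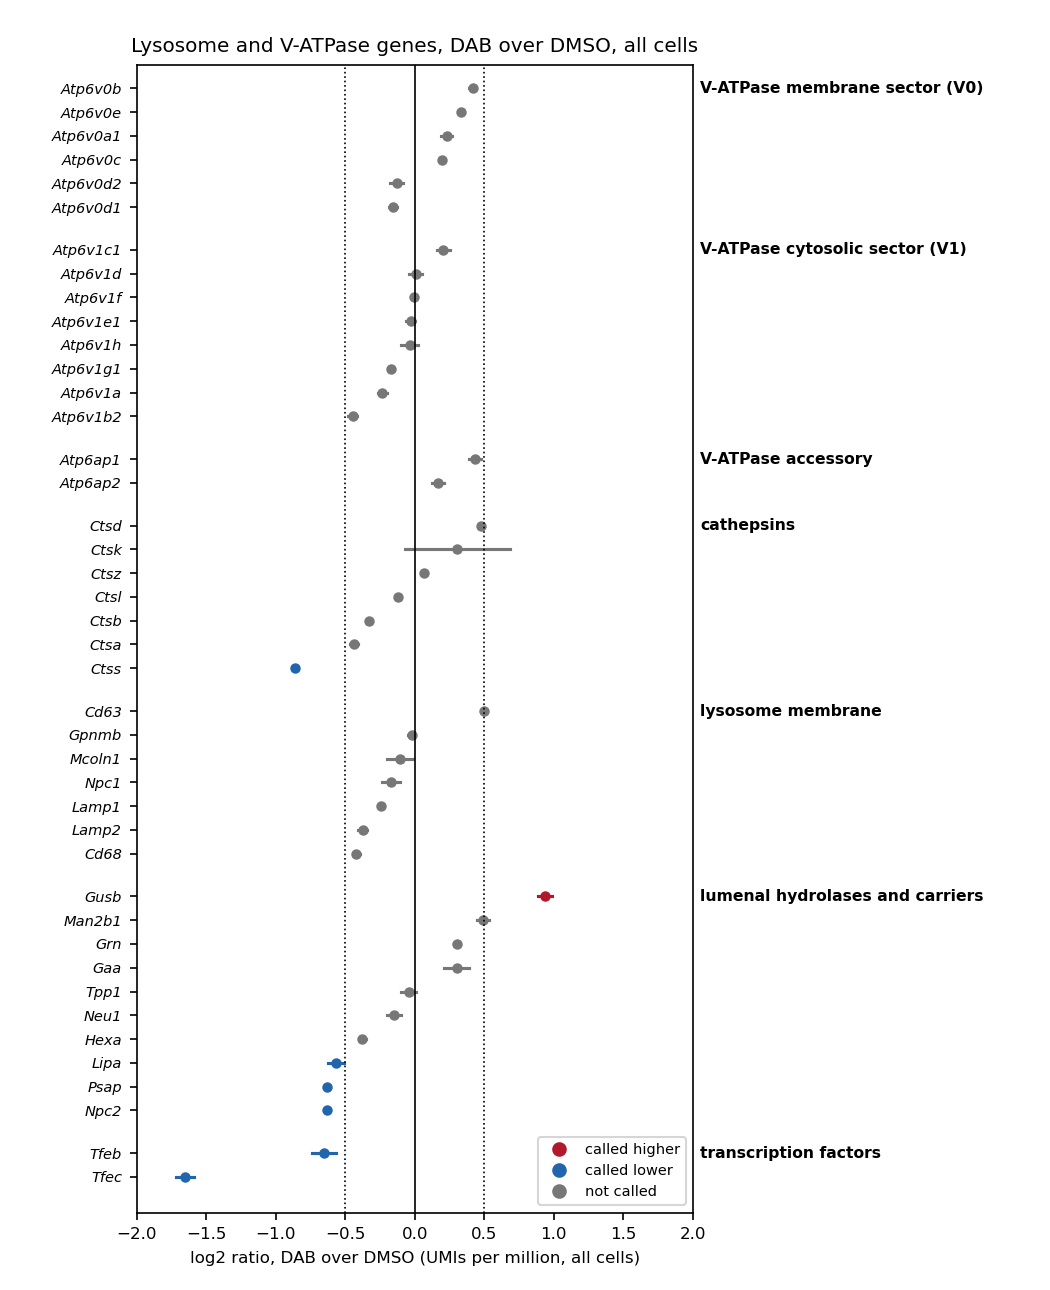
Log2 ratio of DAB over DMSO for each of the 42 genes over all cells (horizontal axis, from CPM), grouped by role. Points are the ratios, bars the exact 95% counting intervals and dotted lines the call limit of 0.5 in size. Gusb alone lies beyond the limit on the right, Tfec lies farthest to the left at −1.65, and no V-ATPase gene passes either limit.

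Other lysosomal genes from a list of 96 gave the same picture of few genes called higher. Of 90 with at least 20 UMIs, 4 were higher and 17 lower in DAB, that is 4.44% and 18.9% of those tested, beside the same backgrounds of 13.8% and 16.2%, with a median log2 ratio of −0.07. Sort1, the sorting receptor sortilin, had the lowest ratio, at 63.2 and 24.9 CPM (−1.34). Next came the nutrient-sensing GTPase Rragd (−1.32), the MiT/TFE factor Mitf at 85.1 and 39.7 CPM (−1.10) and the dipeptidyl peptidase cathepsin C (Ctsc, −0.89). Tfe3, the fourth family member, was not called, at 22.2 and 21.1 CPM (−0.07, −0.15 to 0.01). The MiT/TFE and nutrient-sensing genes thus held 4 lower of 17, with Fnip1 and Fnip2, partners of folliculin, being the other two. The 4 genes called higher were Gnptg, a subunit of the enzyme that tags hydrolases with mannose 6-phosphate (0.78), Rnaset2b (0.66, uncertain because its neighbour Rnaset2a is nearly identical), Atp6v1g2, a neuronal V1 subunit at 1.31 and 2.03 CPM (0.63), and the cathepsin Ctso (0.50). With every cell weighted the same these counts turned to 11 higher and 9 lower, again without a background for that weighting.

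To follow the group within cell types, cells were clustered without the 42 genes, so that their levels did not shape the clusters, and clusters were named from marker genes. The suffix "-like" means that a name rests on those markers alone. The 6 classes compared held at least 200 cells of each library. They were granulocyte progenitor-like (418 DMSO and 469 DAB cells, named from markers such as Elane, Mpo and Prtn3), intermediate granulocyte-like (1858 and 1166, with Camp, Ltf and Ngp), mature PMN-like (548 and 1627, with Csf3r and Cxcr2), chemokine-high granulocyte-like (402 and 1925, with Ccl3 and Ccl4), immature monocyte-like (1115 and 247, with Spp1 and Mmp12) and mature monocyte-like (411 and 590, with MHC class II genes). Of the clusters joined in the intermediate granulocyte-like class, only cluster 7 had Camp, Ltf and Ngp among its 10 top genes. It held 45.6% of the class in DMSO and 18.9% in DAB. Clusters 1 and 16 had Ly6g and Cd177 among theirs. Unnamed clusters held 41.3% of the cells in DMSO and 37.0% in DAB.

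Among the 6 classes compared, levels of the group were highest in the chemokine-high granulocyte-like class. There the 42 genes took 1.95% of the DMSO and 2.15% of the DAB UMIs, against 0.819% and 1.04% in intermediate granulocyte-like and 0.865% and 0.671% in mature monocyte-like cells. In the chemokine-high class, the 7 immature monocyte markers summed to 6146 CPM in DMSO and 5825 CPM in DAB. They summed to 10278 and 10234 CPM in immature monocyte-like cells, and to 924 and 2062 CPM in mature PMN-like cells. The 8 mature PMN markers summed to 3453 and 4800 CPM in the chemokine-high class and to 6244 and 8260 CPM in mature PMN-like cells. The chemokine-high class thus carried markers of both lineages. The chemokine-high class had the highest level for 22 of the 42 genes in DMSO (52.4%) and for 31 in DAB (73.8%), whereas it led for 10.1% and 6.63% of all genes. By this count the mature PMN-like class, with the lowest median depth (2703.5 and 3292 UMIs per cell), came next. It led for 14 members in DMSO (33.3%) and 6 in DAB (14.3%), against 33.0% and 39.2% of all genes. The leading class was the same in both libraries for 29 of the 42 members. Only 7 members in DMSO and 6 in DAB were higher in mature monocyte-like than in mature PMN-like cells, against 41.4% and 39.7% of all genes. The DMSO count leaves out Ctsk, which had no UMI in mature PMN-like cells and a low level in mature monocyte-like cells. Ctss and Gusb were exceptions, with their highest level among the 6 classes in mature monocyte-like cells in both libraries. The same held for Ctsa in DMSO alone and for Man2b1 in DAB alone. Ctss stood there at 637 CPM in DMSO and 427 CPM in DAB. Among the smaller classes, the macrophage-like cells (167 and 129) devoted 2.06% and 1.80% of their UMIs to the group, which in DMSO was more than in the chemokine-high class.

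**Figure D2:**
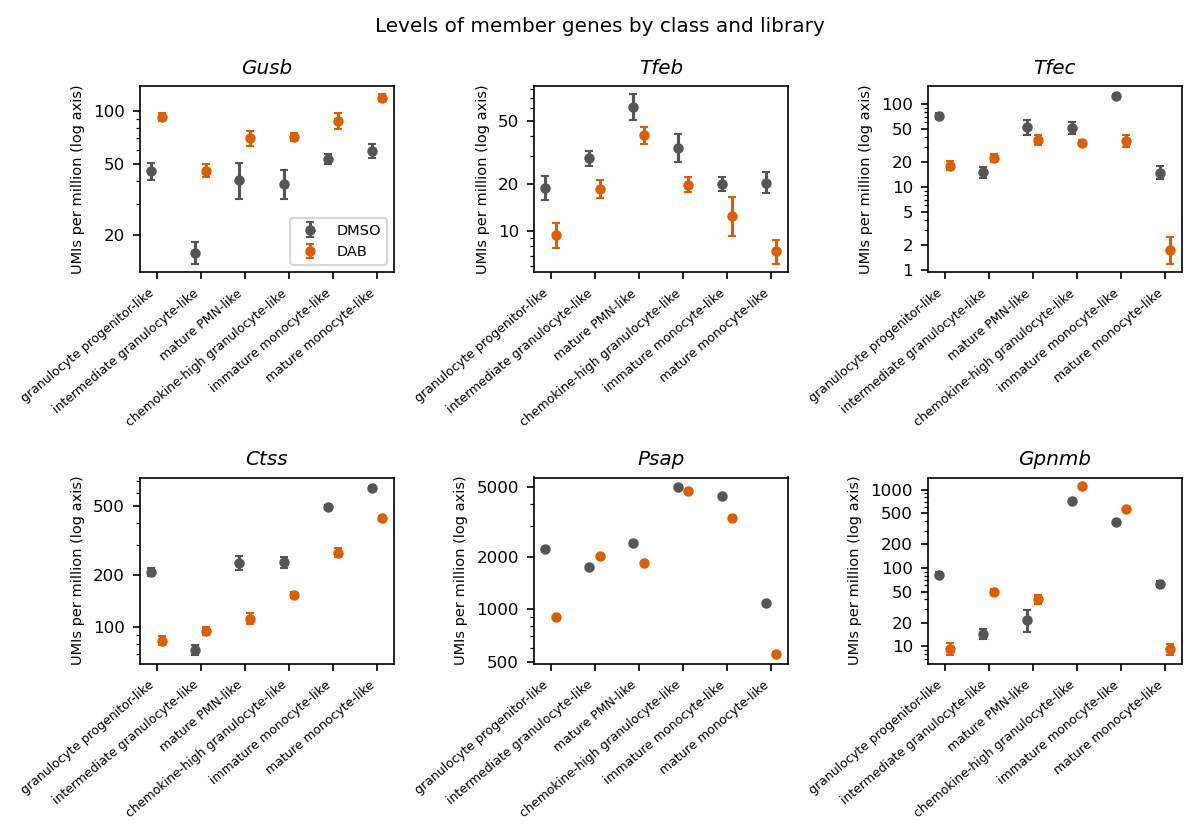
Levels of Gusb, Tfeb, Tfec, Ctss, Psap and Gpnmb in the 6 classes (CPM on log axes, each panel with its own range), in DMSO (grey) and DAB (orange), with exact 95% Poisson intervals. The DAB points of Gusb lie above and those of Tfeb below the DMSO points in all 6 classes, while Gpnmb runs from 9.26 CPM in mature monocyte-like to 1095 CPM in chemokine-high granulocyte-like cells of the DAB library.

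Gusb and Tfeb were called in the same direction in all 6 classes. Gusb was higher in DAB in each of them, from 53.5 to 87.6 CPM in immature monocyte-like cells (log2 0.71, 0.53 to 0.88) up to 15.9 and 46.1 CPM in intermediate granulocyte-like cells (1.54, 1.30 to 1.78). Among the 19 clusters in which both libraries had at least 100 cells, Gusb was higher in 16 and lower in none. Tfeb was lower in each class, from 61.2 and 40.7 CPM in mature PMN-like cells (−0.59, −0.91 to −0.25) to 20.3 and 7.44 CPM in mature monocyte-like cells (−1.45, −1.79 to −1.11). It was lower in 9 of the 19 clusters and higher in none. The calls of these genes depended little on how the cells were clustered, since over 6 other clusterings of the 6 classes Gusb was called higher in 35 of 36 values and Tfeb lower in 31. Of the 5 Tfeb values that were not called, 3 were in mature PMN-like cells. Members called in a single direction in at least 3 classes were, besides these, Ctss, Ctsd, Npc2 and Hexa. How many of all genes were called in 1 direction in all 6 classes, or in at least 3, was not counted. These members therefore have no background beside them.

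Ctss was lower in 5 classes. It stood at 208 and 83.8 CPM in granulocyte progenitor-like cells (−1.31), 236 and 112 CPM in mature PMN-like cells (−1.07), 497 and 269 CPM in immature monocyte-like cells (−0.88), and at −0.63 and −0.58 in chemokine-high granulocyte-like and mature monocyte-like cells. The exception was the intermediate granulocyte-like class, at 73.6 and 94.9 CPM (0.37). Ctss stayed uncalled there in 3 of 6 other clusterings and was called higher in the other 3 (0.34 to 1.06). Ctsd, by contrast, was higher in 3 granulocyte-like classes, at 702 and 1290.0 CPM in intermediate granulocyte-like (0.88), 836 and 1248 CPM in mature PMN-like (0.58) and 1924 and 2852 CPM in chemokine-high cells (0.57). Ctsd was not called in granulocyte progenitor-like cells (0.07), but was called lower there in 2 of 6 other clusterings (−0.76 to 0.06). Nor was it called in immature monocyte-like cells (0.39), where 3 of 6 other clusterings left it uncalled (0.16 to 1.13). In mature monocyte-like cells its level was 396 and 374 CPM (−0.08). The cathepsins thus differed in direction within the same classes: in the mature PMN-like and chemokine-high classes Ctss was lower while Ctsd was higher. These are sums over each class, and the genes were not compared within single cells. Npc2 was lower in granulocyte progenitor-like (−0.83), mature PMN-like (−0.67) and mature monocyte-like cells (−1.12). Hexa, a lysosomal hexosaminidase subunit, was lower in granulocyte progenitor-like (−0.88), immature monocyte-like (−0.51) and mature monocyte-like cells (−0.57). The call on Hexa in immature monocyte-like cells, without which it would have been called in 2 classes, was kept in 2 of 6 other clusterings (−0.59 to 0.01).

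In mature monocyte-like cells most of the called members were lower in DAB. Of 41 members tested, 16 were lower (39.0%), against a background of 19.4%, and 3 were higher (7.32%), against 15.4%. The median log2 ratio was −0.40 (−0.59 to −0.08), with −0.03 for all genes. Tfec was at 14.9 and 1.76 CPM (−3.08, −3.69 to −2.50), Gpnmb at 61.7 and 9.26 CPM (−2.74, −3.00 to −2.48) and Atp6v0d2, an inducible V0 subunit of osteoclasts and macrophages, at 8.89 and 2.16 CPM (−2.04). Cd68 stood at 216 and 71.5 CPM (−1.60), and 5 of the 7 membrane genes were lower. Psap stood at 1082 and 559 CPM (−0.95) and Lamp1, a major glycoprotein of the lysosome membrane, at 359 and 224 CPM (−0.68). The 3 genes higher were Gusb at 59.2 and 118 CPM (log2 interval 0.86 to 1.15), Atp6ap1 (0.53) and Atp6v0b (0.53). Within the pump itself, 4 of 16 genes were lower and 2 higher. Macrophage markers moved along with these values: all 8 of the list (C1qa, C1qb, C1qc, Mrc1, Apoe, Trem2, Mertk and Adgre1) had a lower level in DAB, with a summed level of 581 CPM in DMSO and 171 CPM in DAB and none of them at 0, and 7 immature monocyte markers summed to 3401 and 1614 CPM, with all 7 lower. The 6 granulocyte progenitor markers summed to 224 and 24.1 CPM, with 1 higher, and the 7 mature monocyte markers of the class itself to 22635 and 19897 CPM, with none higher. Their part in the result was not tested.

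Granulocyte progenitor-like cells showed a similar count. Of 41 members tested, 18 were lower (43.9%), against a background of 17.9%, and 2 were higher (4.88%), against 16.1%. The median was −0.45 (−0.81 to −0.18), with −0.03 for all genes. The lower members included 4 of the 6 tested cathepsins, among them the carboxypeptidase and protective protein Ctsa at 198 and 84.3 CPM (−1.23) and Ctsb (−0.85). Psap stood at 2205 and 905 CPM (−1.28), Lipa at 32.6 and 13.3 CPM (−1.30), Cd68 at 176 and 61.2 CPM (−1.53) and Tfec at 71.0 and 18.0 CPM (−1.98). The lysosome membrane genes had 5 lower of 7. The pump had 2 lower of 16, Atp6v1b2 and Atp6v0d2. The 2 genes higher were Gusb at 45.7 and 92.2 CPM (1.01) and Gaa, the acid α-glucosidase, at 21.9 and 31.2 CPM (0.51). The cells of the class changed with the clustering. It held 185 DMSO and 79 DAB cells at a coarser resolution. Clustering without genes that differed between the libraries left 207 and 86.

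This class joined clusters that the libraries filled unevenly. Cluster 23, with 140 DMSO and 27 DAB cells, made up 33.5% of the class in DMSO and 5.76% in DAB. In cluster 13 alone (278 and 442 cells) the median was −0.39 (−0.65 to −0.11), and Psap was at 1889 and 883 CPM (−1.10) and Cd68 at −1.52. Gpnmb depended on the mixture, with 82.5 and 9.32 CPM in the class (−3.15), 10.6 and 4.01 CPM in cluster 13, and 419 and 292 CPM in cluster 23. All 8 macrophage markers were lower in DAB in the class, at a summed 280.4 CPM in DMSO, where none was at 0, and 145 CPM in DAB, where 2 were. The 6 granulocyte progenitor markers of the class itself summed to 3055 and 1803 CPM, with 1 higher in DAB, and 7 basophil or mast cell markers to 4.82 and 54.8 CPM, with all 7 higher. Their part in the result was not tested.

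Intermediate granulocyte-like cells differed the other way. Of 41 members tested, 15 were higher (36.6%), against a background of 23.7%, and 1, Tfeb, was lower (2.44%), against 13.1%. The median was 0.35 (0.19 to 0.51), with 0.12 for all genes. The higher members were spread over the roles, with 4 pump genes, 3 cathepsins, 2 membrane genes, 5 hydrolases and carriers, and Tfec, whose call was kept in 3 of 6 other clusterings (0.44 to 1.24). Gpnmb (1.78) and Atp6v0d2 (1.61), at the low levels given below, had the largest ratios. Gusb (1.54), Ctsd (0.88), Ctsz (0.78) and Grn, which encodes progranulin (0.70), came next. In clusters 1, 7 and 16, which form the class, the medians were 0.19, 0.21 and 0.17, beside 0.08, 0.16 and 0.07 for all genes, so the class median was larger than that of each of its clusters. Fewer members were called higher within the clusters, 8, 9 and 5 of 41, with 1, 2 and 1 lower. The share of all genes called was not counted by cluster. Of the pump genes called in the class, Atp6v0a1 (0.33, 0.34 and 0.46) and Atp6v1c1 (0.33, 0.41 and 0.17) stayed under the call limit in each cluster. Cluster 7 made up 45.6% of the class in DMSO and 18.9% in DAB, and cluster 16 made up 6.67% and 34.4%. Marker lists differed between the libraries in this class too. Its own 10 intermediate granulocyte markers summed to 42554 CPM in DMSO and 26681 CPM in DAB, with 3 higher in DAB, and 8 mature PMN markers to 3569 and 5169.6 CPM, with 7 higher. The summed level of 7 immature monocyte markers was 413 CPM in DMSO and 2222 CPM in DAB, with 6 of them higher in DAB and none at 0, that of 8 macrophage markers was 36.5 and 106 CPM, with 3 higher, 5 lower and 2 of them at 0 in DAB, and that of 5 chemokine markers was 8515 and 15359 CPM, with 4 higher. Their part in the result was not tested.

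**Figure D3:**
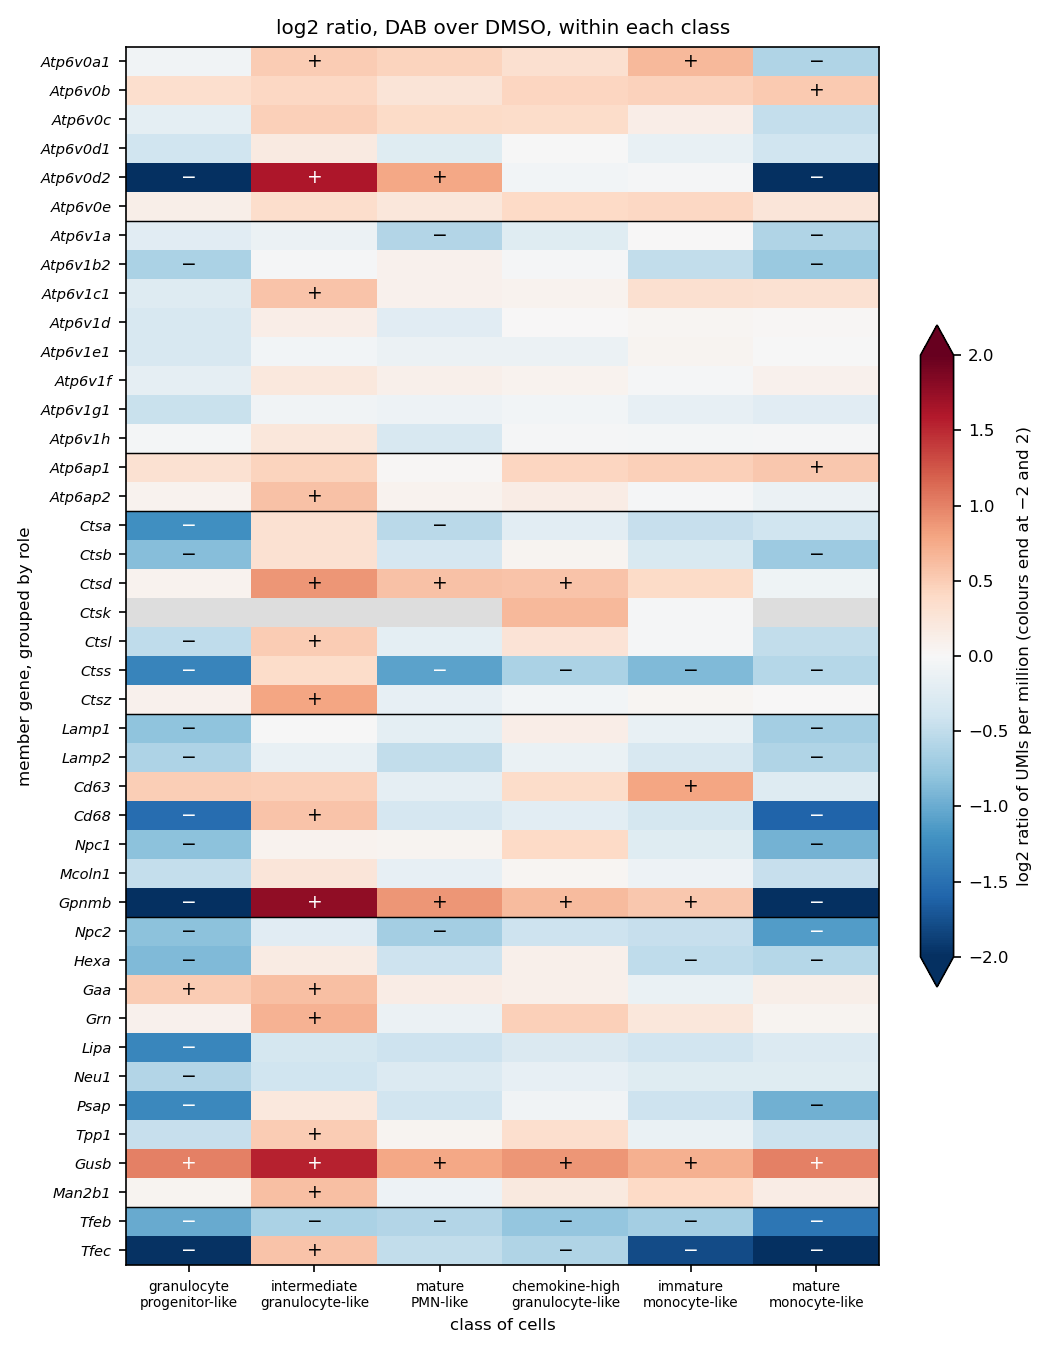
Log2 ratio of DAB over DMSO for each of the 42 genes (rows, grouped by role with lines between groups) in the 6 classes (columns), with red for higher and blue for lower in DAB and colours ending at −2 and 2. Plus and minus signs mark calls, and grey marks fewer than 20 UMIs. The row of Gusb is red and that of Tfeb blue in all 6 columns, with 18 minus signs in granulocyte progenitor-like, 16 in mature monocyte-like and 15 plus signs in intermediate granulocyte-like cells.

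Fewer members were called in the other 3 classes compared. Mature PMN-like cells had 4 of 41 members higher (9.76%), against a background of 9.15%, and 5 lower (12.2%), against 7.6%, with a median of −0.16 (−0.27 to 0.06) and 0.05 for all genes. The members called higher were Gusb, Ctsd, Gpnmb and Atp6v0d2, the last at 73.7 and 127 CPM (0.78, 0.52 to 1.05). Those lower were Ctss, Npc2, Tfeb, Ctsa and Atp6v1a. Chemokine-high granulocyte-like cells had 3 of 42 higher (7.14%), against 8.15%, and 3 lower (7.14%), against 12.2%, with a median of 0.06 (−0.05 to 0.20). Gusb, Ctsd and Gpnmb were higher there, and Ctss, Tfeb and Tfec lower. The call on Tfec was kept in 1 of 6 other clusterings, with ratios from −0.54 to 0.04.

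The chemokine-high class hid a difference between its clusters. In cluster 9 (224 DMSO and 762 DAB cells) the median was 0.47 (0.31 to 0.55), with 0.15 for all genes, and in cluster 3 (178 and 1163 cells) it was −0.02 (−0.09 to 0.16), with −0.04 for all genes. Psap was at 4710.1 and 6762 CPM in cluster 9 (0.52) and at 5150 and 4154 CPM in cluster 3 (−0.31). Gpnmb was at 564 and 1577 CPM in cluster 9 (1.48) and at 799.7 and 959.7 CPM in cluster 3 (0.26), and Atp6v0d2 at 371 and 635 CPM and at 181 and 138 CPM. The chemokine-high cells of the DAB library lay mostly in cluster 3 (60.4%) and those of the DMSO library mostly in cluster 9 (55.7%).

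Immature monocyte-like cells had 4 of 42 members higher (9.52%), against 9.48%, and 4 lower (9.52%), against 17.8%, with a median of −0.03 (−0.17 to 0.04) and −0.11 for all genes. Cd63 was at 338 and 586 CPM (0.79), Atp6v0a1, a large V0 subunit, at 91.8 and 143 CPM (0.64), and Gusb and Gpnmb were the others called higher. Granulocyte markers were higher as well: the 5 chemokine markers summed to 6142 and 10612 CPM, with all 5 higher in DAB, 10 intermediate granulocyte markers to 949.7 and 1779 CPM, with 8 higher and 1 at 0 in DAB, and 8 mature PMN markers to 1487 and 2674 CPM, with 7 higher. Their part in the result was not tested. Tfec stood at 124 CPM in DMSO, its highest level among the 6 classes, and at 35.9 CPM in DAB (−1.79, −2.04 to −1.55). This class depended most on the clustering, since its median was −0.23 at a coarser resolution and 0.35 without alignment of the libraries. Its cells were not the same ones there. The class held 1813 DMSO and 1856 DAB cells at the coarser resolution, and 1395 and 64 without alignment. In the clustering reported here, its 247 DAB cells were the fewest of any library and class compared. Outside the 6 classes, macrophage-like cells had 12 of 42 members lower and 2 higher. Activated dendritic cell-like cells had 14 of 41 lower and 3 higher, and unnamed cells 11 of 42 and 2. In B cell-like cells 2 of 38 were lower and 4 higher, and in basophil or mast cell-like cells 6 of 39 and 4. The share of all genes called was not counted in these cells.

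**Figure D4:**
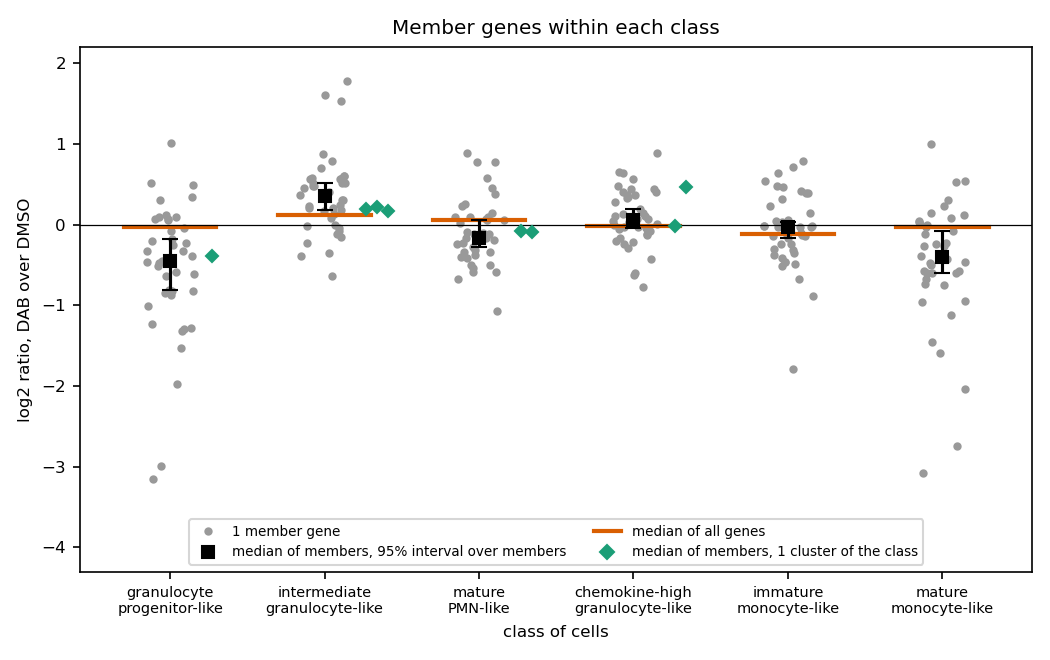
Log2 ratios of DAB over DMSO of the member genes within each class (grey points), with their median and its 95% interval over the members (black), the median of all genes (orange line) and the median within single clusters of classes made of several (green diamonds, both libraries at 100 cells or more). The black squares lie below the orange lines in granulocyte progenitor-like, mature PMN-like and mature monocyte-like cells, and the diamonds of the chemokine-high class stand apart at 0.47 and −0.02.

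Of the 42 members, 6 were called in opposite directions in different classes: Atp6v0a1, Atp6v0d2, Ctsl, Cd68, Gpnmb and Tfec. The share of all genes called in opposite directions was not counted, so this count has no background. Gpnmb (chromosome 6 from 49036546 to 49070929, plus strand) had the widest span, being called higher in 4 classes and lower in 2. Its calls in granulocyte progenitor-like, intermediate granulocyte-like and mature monocyte-like cells were kept in all 6 other clusterings. The others were not stable: the call was kept in 4 of 6 in chemokine-high cells (log2 0.34 to 0.96), in 2 of 6 in mature PMN-like cells (−0.29 to 0.96) and in 2 of 6 in immature monocyte-like cells (−0.62 to 1.70), and in the last 2 classes the direction turned. In the clustering reported here it stood at 706 and 1095 CPM in chemokine-high granulocyte-like cells (0.63, 0.57 to 0.70) and 389 and 564 CPM in immature monocyte-like cells (0.53, 0.47 to 0.60). Its level was far lower, at 14.4 and 49.5 CPM, in intermediate granulocyte-like cells (1.78). In macrophage-like cells, where its level was 1462 CPM in DMSO, it was lower in DAB, at 806 CPM (−0.86, −0.95 to −0.76). Atp6v0d2 had a like range of levels, at 257 and 247 CPM in chemokine-high cells (−0.06) and at 4.38 and 13.4 CPM in intermediate granulocyte-like cells (1.61).

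Low levels of such genes were set beside B cell-like cells, a type that should lack them. Cells were thinned at random to 1500 UMIs each, and the 436 DMSO and 292 DAB cells below that depth were set aside. Gpnmb then had a UMI in 1.54% of intermediate granulocyte-like cells in DMSO and 4.33% in DAB, and in 0.752% (exact interval 0.0190 to 4.12) and 2.78% (0.908 to 6.36) of B cell-like cells. Without thinning the shares were 3.71% and 9.95% in intermediate granulocyte-like cells (median depth 6028.5 and 9431 UMIs) and 2.76% and 4.62% in B cell-like cells (3976 and 4983 UMIs). The Gpnmb UMIs of B cell-like cells were not spread evenly. In DMSO 3 cells held 9 of 10, and in DAB 3 cells held 88 of 95. The summed Gpnmb level of these cells (13.4 and 83.6 CPM) thus rests mostly on 3 cells of each library. The few UMIs in their other cells were not set against those of other classes. Atp6v0d2 had only 3 UMIs in the DMSO B cell-like cells, too few to show whether they were spread. In DAB, 3 cells held all 8. The part of free RNA in the low levels of Gpnmb and Atp6v0d2 was not tested.

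The thinned Gpnmb shares were 1.86% and 2.52% in mature PMN-like cells (3.28% and 4.24% unthinned), 28.0% and 39.1% in chemokine-high cells (42.04% and 51.6% unthinned) and 6.60% and 1.19% in mature monocyte-like cells (23.1% and 4.92% unthinned). Atp6v0d2 had thinned shares of 0.513% and 2.25% in intermediate granulocyte-like cells (1.51% and 7.03% unthinned), beside 0 of 133, which allows up to 2.74%, and 1.11% of B cell-like cells (2.07% and 1.54% unthinned). Tfec had no UMI in the thinned B cell-like cells of either library, which allows shares of up to 2.74% of 133 and 2.03% of 180 cells. It was seen in 1.48% and 3.81% of intermediate granulocyte-like cells and in 2.44% and 0.340% of mature monocyte-like cells. Without thinning these shares were 1.38% and 0% in B cell-like, 7.53% and 18.4% in intermediate granulocyte-like and 19.95% and 4.75% in mature monocyte-like cells.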

How the data were processed

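For scRNA-seq, 1 library per condition was made (10x Genomics 5′ v2 chemistry). The deposited values are raw UMI counts for every gene and barcode, which the authors obtained from Cell Ranger 7.0.0 and mm10. No source used here says whether intronic reads were counted. Gene positions come from GENCODE M21 (GRCm38).

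A mitochondrial share above 10% excluded a barcode, and none lay beyond 4 median absolute deviations in UMI or gene number. Likely doublets (768 DMSO and 1066 DAB barcodes, 0.8% per 1000 cells) were those most like simulated ones, drawn at 2 per barcode. The 3000 most variable genes other than the members entered as Pearson residuals (theta 100), corrected for mitochondrial share and cell cycle, and 40 principal components were kept. Mutual nearest neighbours (k = 20) served to align the libraries, and Leiden clustering (resolution 0.9) gave 26 clusters. Of these, 16 could be named from 16 marker lists. For a name, at least 3 markers had to reach a log2 fold of 1 over the other clusters (10 CPM added), no fewer detected markers could pass than fail, and the name had to lead among the 10 top genes. The 3 granulocyte names required S100a8 or Csf3r as well. The naming rule followed a first look at the clusters. Eosinophil-like cells (5 and 33) were not compared.

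UMIs were summed per library and class and compared as ratios of levels, with exact conditional intervals at 95%. These and the exact binomial intervals of shares cover counting error only. The members, role groups, marker lists and list of other lysosomal genes were chosen with earlier results of these data known. The genes named were members called over all cells, in 1 direction in at least 3 classes or in opposite directions, Tfeb and Tfec, the highest and lowest of each role group, the 5 other lysosomal genes with the largest called ratio in each direction, Tfe3 and Mitf. Of these, 1 gene is not reported here. Further members are named as examples within a class, and were chosen after their values were seen, as were Fnip1 and Fnip2. Over all cells, alternatives were median-of-ratios scaling, means over cells, no filter on cells, no removal of doublets, class-standardized values, minimums of 200 and of 1 UMI, and a call at a log2 ratio of 1. By class, they were Leiden resolutions 0.5 and 1.5, no alignment, members kept for clustering, no correction for cell cycle, clustering without 55 genes that differed between the libraries, and the same scaling and means. Across these clusterings a class kept its name but not its cells, and its cell number could fall under the minimum of 200. Values of single clusters were added after the data were seen. The tools were Python 3.11.15, numpy 2.4.6, scipy 1.17.1, scikit-learn 1.9.0, igraph 0.11.9, leidenalg 0.10.2 and matplotlib 3.10.9.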

Additional observations from a re-analysis of the deposited data

Results flagged for a closer look

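The 6 members called higher in 1 class and lower in another are given with their highest and lowest called log2 ratios (DAB over DMSO). The difference between classes was not tested in any of them, and the share of all genes with such opposite calls was not counted. Atp6v0a1 was at 0.64 in immature monocyte-like and −0.60 in mature monocyte-like cells. Each of these calls was kept in 4 of 6 other clusterings (0.04 to 0.63 and −0.70 to −0.41). Atp6v0d2 was at 1.61 in intermediate granulocyte-like cells and −2.99 in granulocyte progenitor-like cells. The latter class joined clusters of unlike Atp6v0d2 level, with ratios of −2.25 (cluster 13) and −0.35 (cluster 23). Ctsl, a cysteine cathepsin, was at 0.51 in intermediate granulocyte-like and −0.51 in granulocyte progenitor-like cells, both near the call limit. Cd68 was at 0.57 in intermediate granulocyte-like and −1.60 in mature monocyte-like cells. Gpnmb was at 1.78 in intermediate granulocyte-like cells and −3.15 in granulocyte progenitor-like cells, where clusters of unlike Gpnmb level were joined. Tfec was at 0.58 in intermediate granulocyte-like cells, a call kept in 3 of 6 other clusterings, and −3.08 in mature monocyte-like cells.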

How the results depend on the processing

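No paired analysis was possible because there is 1 library per condition, and no replicate could be left out. Over all cells, the count of members higher in DAB (1 as reported) became 3 with scaling by the median of ratios, 9 with a mean over cells, 2 without doublet removal, 2 with class-standardized values and 0 with a call at a log2 ratio of 1. The count lower (6) became 2 with a mean over cells and 1 with a call at 1, and the median log2 ratio (−0.08) became 0.17 with a mean over cells. For the other lysosomal genes (4 higher and 17 lower), a mean over cells gave 11 and 9, class-standardized values 7 higher, and a call at 1 gave 0 and 3. The share of all genes called is not given for these alternatives. Within classes, the median of immature monocyte-like cells (−0.03) was −0.23 at Leiden resolution 0.5, 0.35 without alignment (64 DAB cells) and 0.082 with scaling by the median of ratios. That of chemokine-high granulocyte-like cells (0.06) was −0.049 without alignment and 0.47 in cluster 9 alone, and that of intermediate granulocyte-like cells (0.35) was 0.17 in cluster 16 alone. The cause was not tested for any of these. The summed calls over the 6 classes, 31 higher and 47 lower, ranged over 28 to 43 and 47 to 63 in the alternatives by class. The number of members led by the chemokine-high class ranged over 22 to 31 in DMSO and 22 to 34 in DAB. Counting error limits mainly Ctsk and the lowest levels of Gpnmb, Atp6v0d2 and Tfec, and the spread between cultures could not be estimated.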
